A study of Mus musculus with 23 samples.

Results

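The heat response of p53 null mouse embryos was compared with that of wildtype embryos. For each array probe, the log2 change from control to heat shock in wildtype pools was subtracted from the same change in null pools. The members are all 15 arrays of the 4 groups concerned, of 23 arrays in the series: p53 +/+ control (4 pools), p53 +/+ heat shock (4 pools), p53 -/- control (4 pools) and p53 -/- heat shock (3 pools). Embryos of day 8.5 from heterozygous crosses spent 10 minutes in water at 38 °C (control) or 43 °C (heat shock), were genotyped, and were pooled whole, 3 to 7 to a pool. A difference above 0 means that the heat change was more positive in null pools, and a difference below 0 that it was more negative. The 8 arrays of p53 +/- pools, 4 at each temperature, are set beside these as a further genotype and were part of the same fit. The labels name no strain, sex or litter, and the time from bath to collection is not given in the sources used here. In whole-embryo pools, fewer cells of a type and less RNA per cell cannot be told apart.

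The transcription factor p53 is stabilised after DNA damage and other stresses and switches on genes that halt the cell cycle, trigger apoptosis, adjust metabolism and, through Mdm2, limit p53 itself. Heat also acts through heat shock factor, which switches on chaperone genes such as those of the Hsp70 family without needing p53. In early embryos p53 is known for its part in apoptosis after teratogen exposure, and both excess and loss of p53 can disturb neural tube closure.

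Of 36227 probes, 23684 (65.4%) had at least 3 values in each of the 4 groups and were tested, and 13375 genes were represented by 1 probe each. No probe carries the symbol Trp53, which leaves the genotypes unchecked by that gene. Levels are normalised intensities in the arrays' relative units. An adjusted p is that of limma's two-sided test with Benjamini-Hochberg correction across the tested probes, and 0.05 is the threshold. Only pool-to-pool spread enters it. That of the p53 +/- pools is included, since all 23 arrays were fitted together.

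Some arrays stood apart from their group. Among heat pools, Hspa1a, the inducible Hsp70, was at 0.877 in wildtype pool B against 78.7 to 122.5 in the other wildtype pools, and at 120.0 in null pool B against 1.77 and 2.10 in the other null pools. The heterozygous control pools fell into A and B against C and D, and the wildtype and null control pools lay on opposite sides of that split. A score of each array along it ran from 0.0655 to 0.422 in wildtype control pools and from -0.604 to -0.242 in null control pools, with no overlap. In heat pools it ran from -0.0637 to 0.299 for wildtype and from -0.295 to 0.425 for null. Control and heat arrays also differed in the deposited files, since 8874 to 11610 probes were empty on the wildtype and null control arrays and 0 on the heat arrays. No scan date or slide was used here, so bath and array processing cannot be told apart.

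The heat change differed between null and wildtype embryos for a small set of transcripts. Of the 23684 probes, 205 passed the threshold (0.866% of those tested). Of these, 65 were more positive in null pools (0.274%) and 140 were more negative (0.591%). At an unadjusted p under 0.05 there were 5060 (21.4%). Among genes, 80 of 13375 passed (0.598%), 45 of them more positive (0.336%) and 35 more negative (0.262%). The share of more positive probes was 31.7%, but 73.1% of 618 in values as deposited, without normalisation between arrays, and 41.9% of 365 when the 15 arrays were fitted alone. The count was 9 without null heat B and 325 without wildtype heat B. With both left out, a setting chosen after the data were seen, it was 78. With the split score as a covariate, in the 15 arrays alone, it was 11.

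**Figure D1:**
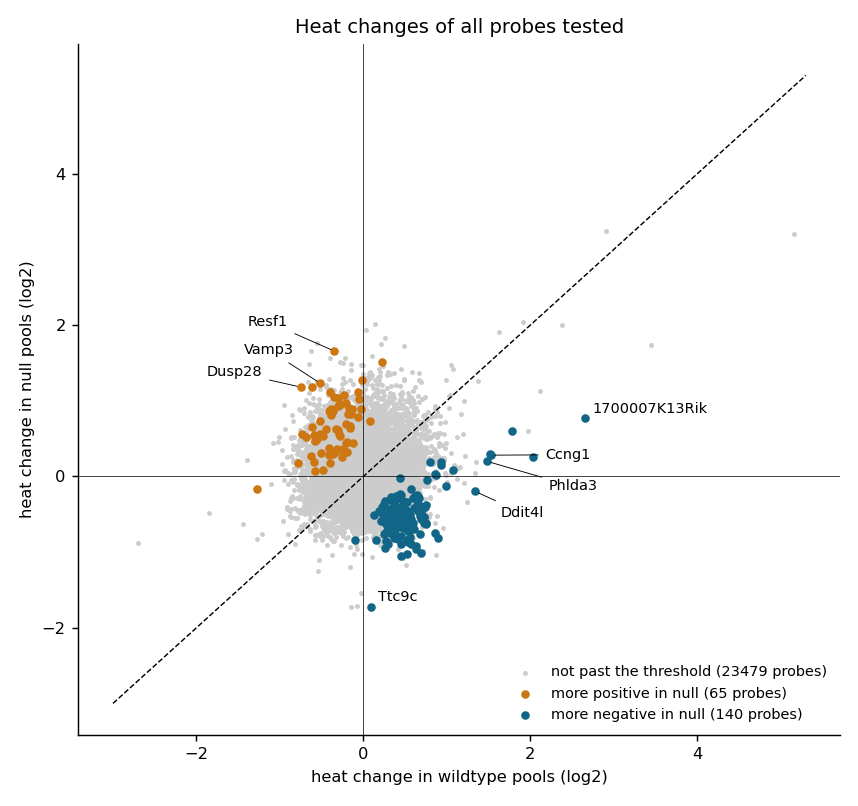
Heat change (log2, heat minus control) of each of the 23684 tested probes in wildtype pools (x axis) and null pools (y axis), with the line of equal change dashed. The 65 probes more positive in null lie above the line, mostly with a negative change in wildtype and a positive one in null, and the 140 more negative lie below it.

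The 65 more positive probes had a median heat change of -0.34 in wildtype and 0.63 in null pools, and 62 of them had a negative change in wildtype beside a positive one in null. The 140 more negative probes had medians of 0.46 and -0.51, and 127 had a positive change in wildtype beside a negative one in null. Of all 23684 probes, 5426 had the former pair of signs and 7170 the latter, and choosing probes by the difference itself favours opposite signs. Over all probes tested the medians were 0.01 and -0.03. The heat change itself passed in null pools alone for 43 of the 65 and 65 of the 140, in wildtype pools alone for 13 and 44, in both for 2 and 4 and in neither for 7 and 27. Of all probes, 4.89% had a heat change that passed in null pools and 2.8% in wildtype pools. Null and wildtype pools differed past the threshold for 7.68% of probes in controls and 0.519% after heat, or 1819 and 123 probes. That order was not kept in all settings. In the 15 arrays alone with the split score as a covariate, the counts were 14 in controls and 862 after heat. In values as deposited they were 1236 and 1546, and the other settings kept more in controls. Heterozygous pools lay between, with median heat changes of -0.06 for the more positive and -0.13 for the more negative probes. A difference between responses can come from either bath. For 22 of the 140 more negative probes the gap between null and wildtype levels was at least 2 times as large (log2) after heat as in controls, and for 31 it was at least 2 times as large in controls. For the 65 more positive probes these counts were 11 and 13. The remaining probes, 87 and 41, had gaps of more similar size in both baths. Of all 23684 probes, 6798 had the larger gap after heat and 7308 in controls. No symbol was listed for 66.4% of the more negative probes and 15.4% of the more positive, against 33.3% of those tested.

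The p53 targets, genes that p53 switches on directly, held the most genes past the threshold of the lists examined. Of 50 measured targets 5 passed, all more negative in null pools (Ccng1, Phlda3, Bbc3, Zmat3 and Dcxr), and 36 differences were below 0 and 14 above. The median difference was -0.21, against 0.02 over all 13375 genes, of which 80 passed (0.598%). Over 28 alternative settings the call was missed in 15 for Ccng1, 7 for Phlda3, 16 for Bbc3, 15 for Zmat3 and 2 for Dcxr, and the sign changed in 0 for each. Genes chosen for passing in these same pools can hardly change sign in such refits. The list was drawn up with earlier results of these samples known, so its direction is not independent evidence. Without null heat B, 0 targets passed with a median of -0.25. Without wildtype heat B, 12 passed with a median of -0.28. Without both, a setting chosen after the data were seen, 6 passed with a median of -0.34. Leaving out wildtype control B, C or D, wildtype heat D or null heat C gave 1 each, null control B or C 2 each, and wildtype control A, null control A, wildtype heat A or null heat A 3 each. Without wildtype heat C, 2 passed more negative and 1 more positive. The median was -0.12 without null heat C and -0.13 without wildtype heat C, and stayed below 0 without each of the 15 pools in turn. With the split score in the model 0 passed at a median of -0.22, and in values as deposited the median was -0.02 with 4 more negative and 1 more positive. Each pool's mean log2 level over the 47 targets measured on all 15 arrays, relative to each gene's mean, ran from 0.0622 to 0.56 in wildtype heat pools. In null heat pools it ran from -0.19 to -0.0328, in wildtype control pools from -0.0814 to 0.0265 and in null control pools from -0.263 to -0.152.

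**Figure D2:**
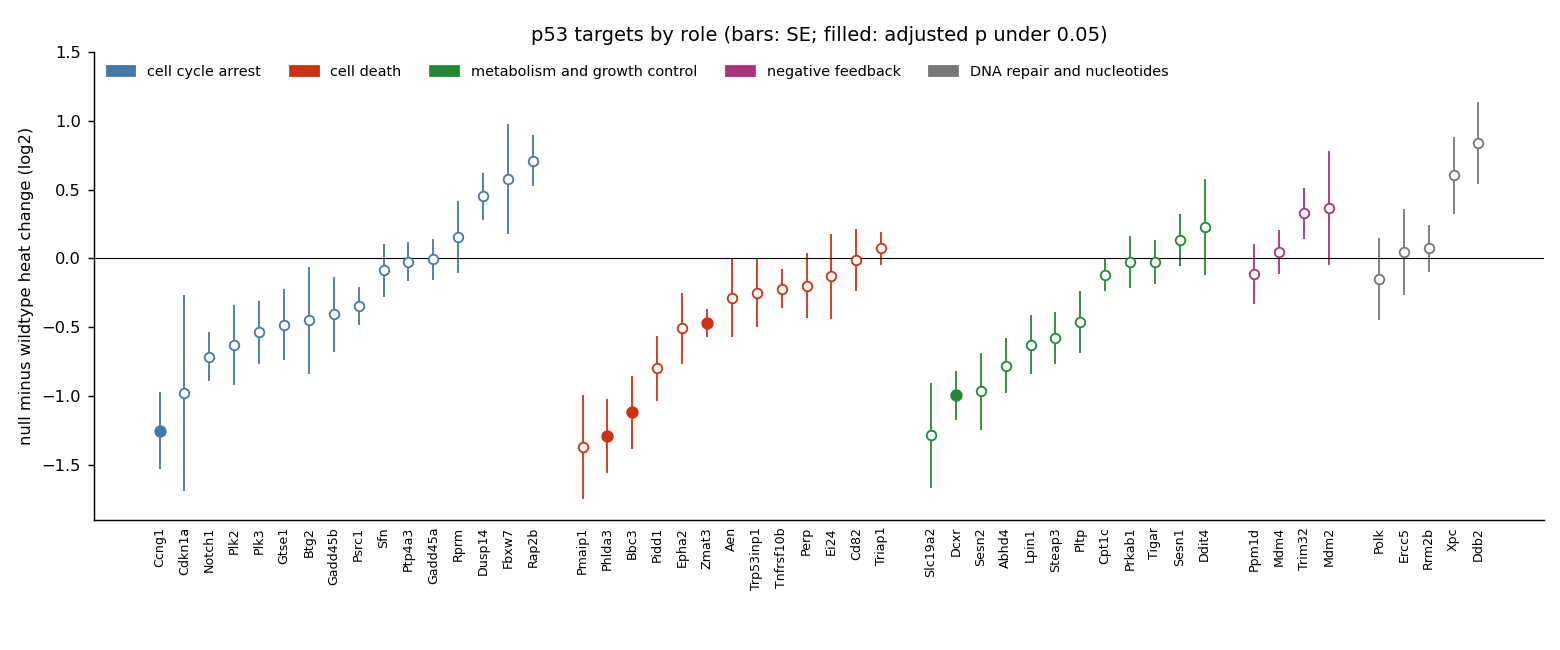
Difference between the null and wildtype heat changes (log2, bars are SE) of the 50 measured p53 targets, grouped by role. The 5 filled points passed the threshold and all lie below 0, and the negative feedback and DNA repair targets lie close to 0 or above it.

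Among 16 targets linked to cell cycle arrest, 12 differences were below 0 and 1 passed, with a median of -0.38. Of all 13375 genes, 6455 differences were below 0, 80 passed (0.598%) and the median was 0.02. This role and those below divide the same list, drawn up with earlier results of these samples known. Ccng1, cyclin G1, which acts with protein phosphatase 2A on Mdm2, was at 3.49, 4.32, 4.08 and 4.05 in wildtype control pools and at 11.6, 11.2, 14.2 and 9.42 after heat. Null control pools were at 1.58, 1.25, 1.49 and 1.41, and null heat pools at 3.02, 1.24 and 1.39. Every wildtype heat pool was above every other pool of the 4 groups, and only null heat A of the null heat pools was above the null controls. The wildtype change was 1.53 ± 0.19, the null change 0.28 ± 0.21 and the difference -1.25 ± 0.28 (adjusted p = 0.0369). Heterozygous pools had a change of 1.38, from 2.19 to 2.95 in controls and from 6.26 to 7.63 after heat, and every heat pool was above every control pool. Without null heat B the Ccng1 difference was -1.01 (adjusted p = 0.139).

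Cdkn1a, the cyclin-dependent kinase inhibitor p21 and the best-known arrest target, did not pass. It was at 6.08, 4.54, 5.60 and 4.69 in wildtype controls and at 34.1, 9.85, 34.2 and 22.1 after heat. Null controls were at 1.44, 1.20, 1.47 and 1.07, and null heat pools at 3.93, 4.65 and 1.23. Wildtype pools were above null pools in each bath, and both genotypes had higher values after heat in most pools. The difference was -0.98 ± 0.71 (adjusted p = 0.414), with a 95% interval from -2.45 to 0.50 that includes both no difference and one larger than that of Ccng1. Heterozygous controls split here too, at 5.41 and 5.25 in A and B and at 1.29 and 1.45 in C and D. Notch1 (-0.71 ± 0.18, adjusted p = 0.0574) and the polo-like kinase gene Plk2 (-0.63 ± 0.29, adjusted p = 0.217) did not pass either.

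Among 13 targets linked to cell death, 12 differences were below 0 and 3 passed, with a median of -0.28. Of all 13375 genes, 6455 were below 0 and 0.598% passed. Phlda3, which restrains the survival kinase Akt, was at 3.46, 2.83, 2.97 and 3.02 in wildtype controls and 10.1, 5.26, 12.2 and 8.42 after heat. Null controls were at 2.05, 2.03, 2.49 and 2.47 and null heat pools at 2.48, 3.14 and 2.21. The wildtype heat pools lay above all others, with pool B lowest among them, while null heat pools overlapped their controls. The difference was -1.29 ± 0.27 (adjusted p = 0.0262), and -1.43 without null heat B (adjusted p = 0.0545).

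Bbc3, the BH3-only death protein Puma, was at 2.09, 2.46, 2.35 and 2.55 in wildtype controls and 4.54, 2.81, 6.78 and 5.60 after heat. It was at 2.50, 2.82, 2.75 and 2.16 in null controls and 2.48, 2.33 and 2.20 in null heat pools. Wildtype heat pools A, C and D were above all other pools, and wildtype heat B lay within the range of the null controls. The difference was -1.12 ± 0.27 (adjusted p = 0.0467), and -1.36 without wildtype heat B (adjusted p = 0.00372). Zmat3, an RNA-binding zinc finger protein, had the smallest difference among the 5, -0.47 ± 0.10 (adjusted p = 0.0317). Its wildtype level went from between 25.6 and 30.1 to between 35.8 and 38.5, while null pools stayed between 22.5 and 26.2 in both baths. Zmat3 missed the threshold with median centring of the arrays (a call lost, at the same sign) and in values as deposited. Pmaip1, the BH3-only protein Noxa, was at 22.7, 8.24, 28.4 and 17.6 in wildtype heat pools and at 4.87, 10.2 and 4.88 in null heat pools. Its 2 B pools were thus the lowest wildtype and the highest null value, as for Hspa1a, and the difference of -1.37 ± 0.38 did not pass (adjusted p = 0.0792). Without both B pools, a choice made after these values were seen, it was -2.09 (adjusted p = 6.69e-06). Leaving out those 2 values makes the difference larger by itself. Pidd1, an activator of caspase-2, had -0.80 ± 0.24 (adjusted p = 0.0986).

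Among 12 targets linked to metabolism and growth control, 10 differences were below 0 and 1 passed, with a median of -0.52. Of all 13375 genes, 6455 were below 0 and 0.598% passed. Dcxr, an enzyme that reduces dicarbonyls and L-xylulose, was at 1.92, 2.09, 1.99 and 2.16 in wildtype controls and 4.83, 5.13, 4.22 and 3.26 after heat. Null controls were at 1.64, 1.55, 1.67 and 2.07 and null heat pools at 1.75, 1.88 and 1.84. The wildtype heat pools were apart from all others and the null pools did not separate by bath. The wildtype change was 1.07 ± 0.12, the null change 0.08 ± 0.13 and the difference -0.99 ± 0.18 (adjusted p = 0.0185), or -1.02 without null heat B (adjusted p = 0.0545). Sesn2, a stress sensor that inhibits mTORC1, had -0.97 ± 0.28 (adjusted p = 0.0956), and the thiamine transporter gene Slc19a2 had -1.28 ± 0.38 (adjusted p = 0.0991).

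The remaining roles had medians above 0. Among 4 negative feedback targets 1 difference was below 0 and 0 passed, with a median of 0.19. Mdm2, the ubiquitin ligase that degrades p53, was dim, between 0.389 and 1.13 in the 4 groups, and had 0.36 ± 0.42 (adjusted p = 0.611). Among 5 targets in DNA repair and nucleotide supply 1 was below 0 and 0 passed, with a median of 0.07. The highest of these was Ddb2, a damage sensor of nucleotide excision repair, at 0.84 ± 0.30 (adjusted p = 0.143). Differences between the roles were not tested. Of 27 regulators and cofactors of p53, 1 passed (0.598% of all genes did), which is Ccng1 again, with a median of 0.09. The count of targets passing at an unadjusted p under 0.05 was 16 more negative and 4 more positive. Of all 13375 genes, 1166 were more negative and 1737 more positive at that unadjusted p.

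**Figure D3:**
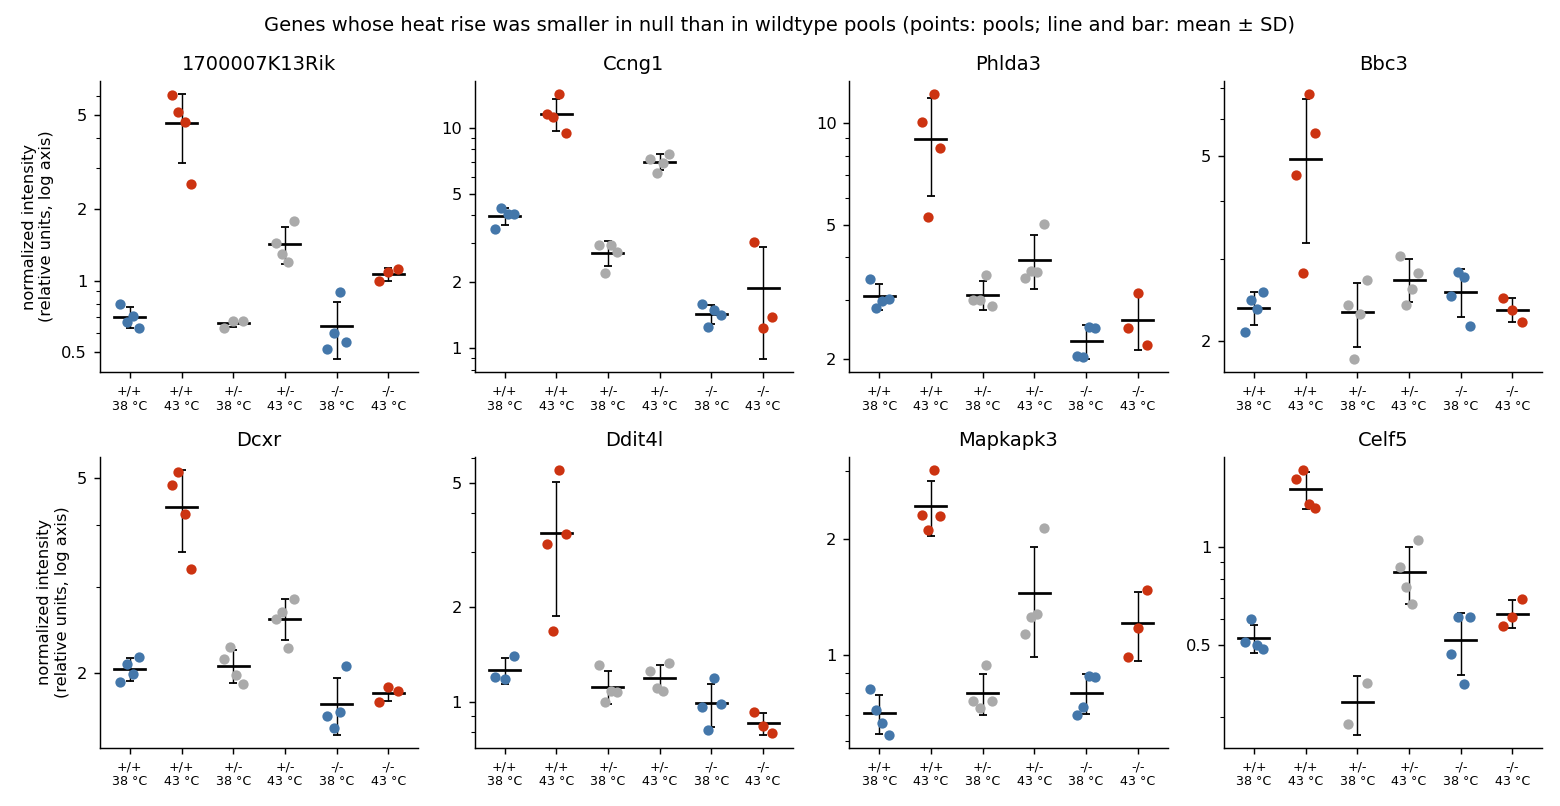
Normalised intensity (relative units, log axis) of 8 genes whose heat rise was smaller in null than in wildtype pools, in each pool of the 6 groups. Points are pools (n = 3 or 4), with the mean and SD in black and heterozygous pools in grey. The mean of the wildtype heat pools is the highest of the 6 groups in all 8 panels.

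Several genes outside that list had the same pattern. The largest more negative difference that passed was that of 1700007K13Rik, also known as Pierce1, a gene reported to be induced by p53 in cells without Rb. It was at 0.798, 0.670, 0.707 and 0.633 in wildtype controls and at 6.10, 5.15, 4.67 and 2.56 after heat. Null controls were at 0.515, 0.602, 0.896 and 0.552 and null heat pools at 0.994, 1.09 and 1.12. All null heat pools lay above the null controls and below every wildtype heat pool. The control and null heat values were dim. The wildtype change was 2.65 ± 0.20 and the null change 0.77 ± 0.22 (adjusted p = 0.0479), so a smaller rise passed in null pools as well. The difference was -1.88 ± 0.30 (adjusted p = 0.0128), and the heterozygous change of 1.10 lay between. It missed the threshold only with the split score as a covariate (-2.17, adjusted p = 0.0729).

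Ddit4l, an inhibitor of mTOR signalling related to Redd1, was at 3.19, 1.68, 5.49 and 3.43 in wildtype heat pools and between 1.18 and 1.40 in the 3 wildtype controls with a value. Null pools were between 0.813 and 1.19 in controls and at 0.928, 0.838 and 0.794 after heat. Wildtype heat pools were the highest, with B again the lowest of them, and the difference was -1.54 ± 0.34 (adjusted p = 0.0332), or -1.53 without null heat B (adjusted p = 0.102). Mapkapk3, a kinase activated by p38, rose in wildtype pools by 1.78 ± 0.17, from between 0.623 and 0.817 to between 2.12 and 3.02. Null heat pools were at 0.989, 1.18 and 1.48, above the null controls at 0.699 to 0.885, and the difference was -1.19 ± 0.25 (adjusted p = 0.0262). Celf5, an RNA-binding protein of neural tissue, was at 1.63, 1.73, 1.36 and 1.32 in wildtype heat pools and at 0.573, 0.609 and 0.693 in null heat pools, with controls of both genotypes between 0.380 and 0.609. Its difference was -1.22 ± 0.25 (adjusted p = 0.0262), beside a wildtype change of 1.52 and a heterozygous change of 1.32 that rests on 2 control pools with a value. Without null heat B the adjusted p was 0.0968 for Mapkapk3 and 0.088 for Celf5. The call was missed in 11 of 27 alternatives for Ddit4l, 11 of 28 for Mapkapk3 and 8 of 28 for Celf5. Those for Celf5 included a floor at the 1st percentile and no floor. Control values of Mapkapk3 and Celf5 were dim.

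Map3k20, the kinase ZAK of the ribotoxic stress response, moved in opposite directions. Wildtype pools went from between 15.2 and 16.3 to 20.4, 22.8, 24.3 and 19.8, and null pools from between 13.7 and 16.2 to 12.7, 12.1 and 11.3. Neither pair of groups overlapped. The wildtype change was 0.48 ± 0.09 and the null change -0.33 ± 0.10 (adjusted p = 0.0499), with a difference of -0.80 ± 0.13 (adjusted p = 0.0128). It missed the threshold in values as deposited and with the split score as a covariate, and its other 2 tested probes did not pass. Ak1, adenylate kinase, had a wildtype change of 0.66 ± 0.13, a null change of -0.38 ± 0.14 and a difference of -1.04 ± 0.19 (adjusted p = 0.019). H2aj, a histone H2A variant, rose by 0.86 ± 0.09 in wildtype pools beside 0.03 ± 0.10 in null pools, with a difference of -0.82 ± 0.14 (adjusted p = 0.015). Its null controls (4.1 to 4.4) already lay above the wildtype controls (3.1 to 3.5). After heat wildtype pools were at 5.6 to 6.4 and null pools at 3.7 to 4.9. Map3k20 and H2aj were named after their values were seen.

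The promoters of the more negative genes were searched for the p53 half-site, the 10-base motif that p53 binds in pairs and that reads the same on both strands. RefSeq windows (GRCm38.p6) of 250 bases before to 50 after a start site matched 30 of the 35 more negative genes and 38 of the 45 more positive ones. At least 1 half-site was present for 7 of the 30 (23.3%) and 5 of the 38 (13.2%), against 928 of 10708 tested genes (8.67%). Among the 41 measured p53 targets with a window it was present for 12 (29.3%). A pair of half-sites, at most 13 bases apart, was present for 0 of the 30 and 0 of the 38. Among the 10708 tested genes such a pair was present for 6 (0.056%), and among the 41 targets for 1 (2.44%). A heat shock element, GAANNTTCNNGAA on either strand, was present for 0 of the 30, 0 of the 38 and 62 of the 10708 (0.579%). Shares over windows this short are a description, and a match is not evidence of binding. Of the 7 genes, the 4 described above with a half-site before the start are shown with 250 bases before the start, 5′ to 3′ on the gene's strand. Capitals mark the half-site.
1700007K13Rik (chr2:28466325-28466574, minus strand, GRCm38.p6): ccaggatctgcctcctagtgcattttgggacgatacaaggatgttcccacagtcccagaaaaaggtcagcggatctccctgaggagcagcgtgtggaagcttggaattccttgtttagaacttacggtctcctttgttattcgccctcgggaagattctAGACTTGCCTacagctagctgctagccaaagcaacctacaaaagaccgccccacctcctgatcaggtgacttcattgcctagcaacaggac
Ccng1 (chr11:40755287-40755536, minus strand, GRCm38.p6): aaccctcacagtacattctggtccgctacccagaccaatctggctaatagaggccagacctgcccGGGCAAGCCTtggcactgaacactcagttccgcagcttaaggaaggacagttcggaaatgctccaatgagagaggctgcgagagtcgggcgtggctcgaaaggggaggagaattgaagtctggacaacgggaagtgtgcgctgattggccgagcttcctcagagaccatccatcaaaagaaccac
Celf5 (chr10:81482700-81482949, minus strand, GRCm38.p6): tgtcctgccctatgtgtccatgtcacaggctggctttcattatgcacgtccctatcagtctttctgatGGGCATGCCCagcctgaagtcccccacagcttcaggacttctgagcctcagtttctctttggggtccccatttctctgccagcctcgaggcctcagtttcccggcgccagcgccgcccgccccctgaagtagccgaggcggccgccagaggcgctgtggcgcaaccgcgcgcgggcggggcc
Ddit4l (chr3:137623422-137623671, plus strand, GRCm38.p6): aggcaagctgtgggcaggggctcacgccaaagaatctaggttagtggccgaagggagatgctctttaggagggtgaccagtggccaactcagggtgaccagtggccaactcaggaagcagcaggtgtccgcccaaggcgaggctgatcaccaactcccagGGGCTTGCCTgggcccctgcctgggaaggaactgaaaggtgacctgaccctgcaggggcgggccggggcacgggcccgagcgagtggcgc
The half-site starts 91 bases before the start site in 1700007K13Rik, 185 in Ccng1, 182 in 1 of the windows of Celf5 and 90 in Ddit4l. In 1700007K13Rik another half-site starts 30 bases after the start site, and in Mapkapk3 the half-site starts 19 bases after it. Of the 5 targets that passed, Ccng1 alone had a half-site in a window, and no window was matched for Zmat3.

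The genes more positive in null pools had another form. Dusp28, a member of the dual specificity phosphatase family, had the smallest p of all probes. It was at 1.79, 1.75, 2.20 and 1.86 in wildtype controls and at 1.21, 1.05, 1.27 and 0.988 after heat. Null pools went the other way, from 1.14, 0.952, 0.823 and 1.03 to 2.28, 2.37 and 2.02. The groups did not overlap in either genotype, and null heat pools lay within or above the range of the wildtype controls. The wildtype change was -0.75 ± 0.14 (adjusted p = 0.00548), the null change 1.18 ± 0.16 (adjusted p = 0.00028) and the difference 1.93 ± 0.21 (adjusted p = 0.000152). It passed in all 28 alternatives, with adjusted p from 6.28e-05 to 0.00876. The heterozygous change was -0.19.

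Bloc1s3, a subunit of the complex that builds lysosome-related organelles, Tasor, a subunit of the HUSH silencing complex, and Med18, a Mediator subunit, had the next smallest p-values and were named after their values were seen. Tasor was between 4.94 and 5.50 in wildtype controls and at 3.91, 4.03, 4.16 and 3.95 after heat, and in null pools went from 3.55, 3.41, 3.32 and 2.94 to 5.12, 6.78 and 6.29. Neither genotype's groups overlapped, and the order of the genotypes turned over with heat. The difference for Tasor was 1.23 ± 0.18 (adjusted p = 0.00418), and it passed in all 28 alternatives. Bloc1s3 had 1.17 ± 0.16 (adjusted p = 0.0031) and Med18 1.22 ± 0.18 (adjusted p = 0.00572). Both missed the threshold only with the split score as a covariate, at adjusted p of 0.087 and 0.054.

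A further 8 named genes more positive in null pools had larger standard errors than Dusp28. Resf1, a factor that silences retroelements, went from 4.02, 2.27, 2.51 and 2.0 to 8.39, 9.49 and 6.92 in null pools, while wildtype control pools (5.26 to 8.06) and heat pools (3.61 to 7.23) overlapped. The Resf1 difference was 2.01 ± 0.41 (adjusted p = 0.0262), and its other tested probe gave 0.61 (adjusted p = 0.341). Tspan31, a tetraspanin, had 1.79 ± 0.38 (adjusted p = 0.0262), and Vamp3, a membrane fusion protein of recycling endosomes, had 1.75 ± 0.34 (adjusted p = 0.0204). For Vamp3, wildtype pools were between 9.28 and 12.1 in controls and between 5.06 and 9.70 after heat, and null pools between 3.20 and 6.95 in controls and between 10.2 and 13.3 after heat. Null heat pools lay above null controls for all 3 genes. Decr2, a peroxisomal reductase of fatty acid breakdown, had 1.41 ± 0.26 (adjusted p = 0.0185), and Frmd3, a FERM domain protein, 1.29 ± 0.29 (adjusted p = 0.0369). Fbp2, the muscle form of fructose bisphosphatase, had 1.27 ± 0.29 (adjusted p = 0.0427), Irak2, a kinase of interleukin-1 signalling, 1.27 ± 0.31 (adjusted p = 0.0487), and Rad51c, a recombination repair protein, 1.0 ± 0.24 (adjusted p = 0.0442). Each of these 8 missed the threshold without null heat B, at adjusted p from 0.0545 (Decr2) to 0.129 (Irak2). With the split score as a covariate each missed it too, at adjusted p from 0.054 (Decr2) to 0.288 (Rad51c). The difference was then 1.23 for Resf1 and 1.17 for Vamp3. Heterozygous control pools of Resf1 were at 7.3 and 8.51 in A and B and at 2.72 and 3.96 in C and D.

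**Figure D4:**
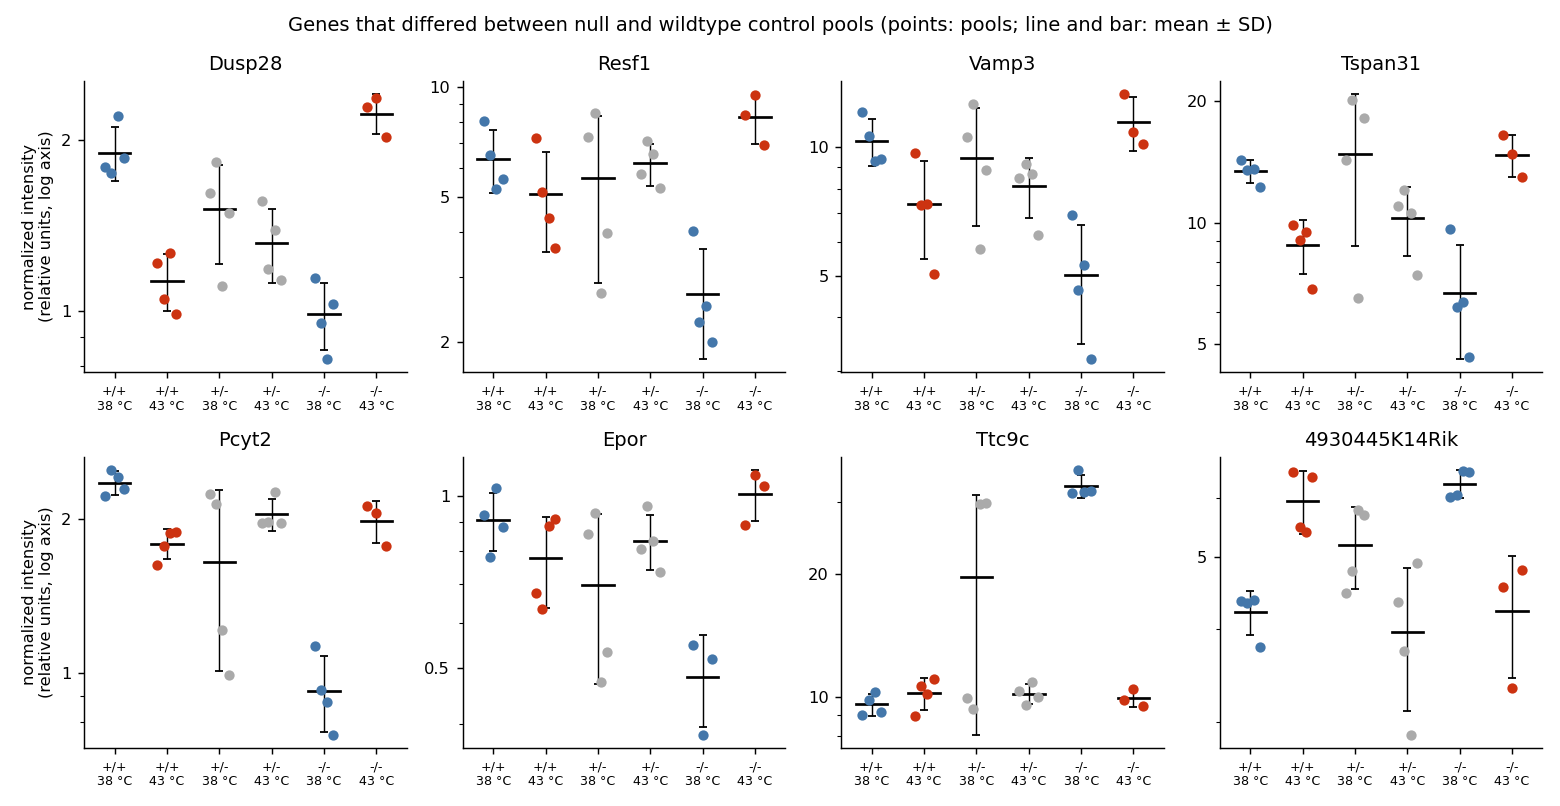
Normalised intensity (relative units, log axis) of 8 genes that differed between null and wildtype control pools, in each pool of the 6 groups. Points are pools (n = 3 or 4), with the mean and SD in black and heterozygous pools in grey. For Pcyt2 and Ttc9c the heterozygous control pools fall into 2 levels, those of the wildtype and of the null controls. Those of Resf1 also split, with A and B at 7.3 and 8.51 and C and D at 2.72 and 3.96.

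In a further set the genotypes differed in control pools and hardly after heat. Pcyt2, which makes the activated ethanolamine for phosphatidylethanolamine, was at 2.22, 2.50, 2.42 and 2.30 in wildtype controls and at 1.13, 0.925, 0.877 and 0.757 in null controls. After heat it was at 1.62, 1.77, 1.88 and 1.89 in wildtype and at 2.12, 2.05 and 1.77 in null pools, which overlapped. The difference between responses was 1.51 ± 0.27 (adjusted p = 0.0185). Heterozygous control pools were at 2.24 and 2.14 in A and B and at 1.21 and 0.990 in C and D, which are the levels of the wildtype and of the null controls. This split is not particular to the probes that passed. Among probes with the larger gap in controls, A and B lay nearer wildtype and C and D nearer null for 61.5% of the more positive. The share was 61.3% of the more negative and 63.2% of all tested (4571 of 7231). Pcyt2 passed with the split score as a covariate (1.38, adjusted p = 0.0269) and missed the threshold without null heat B (adjusted p = 0.0576).

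The sialyltransferase gene St3gal2 (1.33 ± 0.28, adjusted p = 0.0262), Epor, the erythropoietin receptor (1.30 ± 0.29, adjusted p = 0.0387), and Mettl7a2, a methyltransferase-like gene (1.29 ± 0.27, adjusted p = 0.0262), had the same form. Epor was dim, between 0.781 and 1.03 in wildtype controls and at 0.548, 0.383 and 0.518 in the 3 null controls with a value. In null heat pools it was between 0.889 and 1.09. Lyl1, a transcription factor of blood and endothelial precursors, named after its values were seen, had 1.07 ± 0.26 (adjusted p = 0.0461). Epor was the sole member of 25 primitive red blood cell genes to pass, and the median of those genes was 0.20. Of all 13375 genes, 80 passed (0.598%), and their median was 0.02. The call for Epor was missed in 14 of 27 alternatives. Without null heat B adjusted p ran from 0.0807 (Mettl7a2) to 0.115 (Epor) for these 4 genes.

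On the more negative side the clearest case was Ttc9c, a tetratricopeptide repeat protein. Null controls were at 31.5, 35.9, 31.7 and 32.0, and wildtype controls between 9.02 and 10.3. After heat all pools of both genotypes were between 8.95 and 11. Heterozygous controls were at 9.92 and 9.35 in A and B and at 29.6 and 29.9 in C and D, again at 2 levels. The difference was -1.81 ± 0.38 (adjusted p = 0.0262), the null change -1.72 ± 0.28 and the wildtype change 0.09 ± 0.26. The spread of the heterozygous controls (SD 11.6, against 0.58 in wildtype and 2.11 in null controls) enters these standard errors. With the split score as a covariate it was -1.77 (adjusted p = 0.000201), and without null heat B -1.85 (adjusted p = 0.0832). Ezh1, a histone methyltransferase of Polycomb, and Plxna1, a semaphorin receptor, had this form without passing. Ezh1 was between 6.79 and 7.95 in null controls and between 1.58 and 2.94 in all other pools of the 4 groups, and its difference was -1.64 ± 0.49 (adjusted p = 0.0979). That of Plxna1 was -1.58 ± 0.48 (adjusted p = 0.106). Both passed when the 15 arrays were fitted alone.

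A further 3 more negative genes passed. Kcnq1ot1, the long noncoding RNA of the imprinted Kcnq1 domain, had -1.16 ± 0.24 (adjusted p = 0.0262), and its other 3 tested probes did not pass. Anxa8, a membrane-binding annexin, had -1.13 ± 0.26 (adjusted p = 0.0438), and 4930445K14Rik, a gene of unstated function, -1.08 ± 0.20 (adjusted p = 0.019). Without null heat B their adjusted p ran from 0.0788 to 0.102. Other probes of a gene seldom carried the call. Of 99 genes with a called probe, 29 had more than 1 tested probe, with 39 other probes in all. Of these, 26 had the same sign, 0 passed in the same direction and 1 passed in the opposite direction. That gene was Mcc, whose probes gave 0.83 (adjusted p = 0.0254) and -0.63 (adjusted p = 0.0349). The p53 target Cpt1c was represented by a probe at -0.12 (adjusted p = 0.546), while its other probe gave -0.77 (adjusted p = 0.0156). Mcc and Cpt1c's other probe were named after their values were seen.

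The heat shock genes are the best-known response to this treatment, and 0 of 40 measured passed in this comparison, with 26 differences above 0, 14 below and a median of 0.15. At an unadjusted p under 0.05 limma gave 6 above and 2 below 0. Of all 13375 genes, 80 passed (0.598%), and at that unadjusted p 1737 were above and 1166 below 0. Hspb1, a small chaperone, was at 90.5, 77.9, 96.0 and 93.3 in wildtype heat pools and at 65.1, 80.4 and 76.3 in null heat pools, with controls of both genotypes between 15.6 and 20.2. Every heat pool was far above the controls, and the difference of -0.39 ± 0.15 did not pass (adjusted p = 0.17). Its 95% interval ran from -0.70 to -0.07. Hsp90aa1, the inducible cytosolic Hsp90, had 0.06 ± 0.12 (adjusted p = 0.796), with an interval from -0.19 to 0.31.

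Hspa1a and Hspa1b, the inducible Hsp70 pair, divided by pool rather than by genotype alone. Hspa1b was at 100.1, 4.17, 125.1 and 124.6 in wildtype heat pools and at 5.58, 93.5 and 5.85 in null heat pools, while all control pools of the 2 genotypes were between 3.76 and 5.75. High levels were thus reached in 3 of 4 wildtype and 1 of 3 null heat pools, and in 0 of 4 heterozygous heat pools, which were between 4.29 and 4.96. The difference was -1.72 ± 1.19 for Hspa1b (adjusted p = 0.39) and -1.94 ± 1.72 for Hspa1a (adjusted p = 0.502). Without both B pools, a choice made after these values were seen, Hspa1b gave -4.26 (adjusted p = 6.67e-12) and Hspa1a -5.64 (adjusted p = 1.78e-10). The 2 genes are near-identical copies whose probes can share signal. The same B pools gave the lowest wildtype and the highest null value of Pmaip1, and wildtype heat B gave the lowest wildtype heat value of Cdkn1a, Phlda3, Bbc3, Sesn2 and Ddit4l. That order did not hold for all genes that passed. Wildtype heat B gave the highest wildtype heat value of Dcxr (5.13) and Celf5 (1.73), and the lowest value of Ccng1 was in wildtype heat D. Whether the baths or the pools differed was not tested.

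Other stress and growth lists gave 0 or 1 gene past the threshold. Counts of 0 were obtained for 26 oxidative and metal stress genes (median 0.22), 24 genes of the endoplasmic reticulum and amino acid response (0.04), 23 immediate early genes (-0.05), 36 G1/S genes (0.09) and 37 G2/M genes (0.20). At an unadjusted p under 0.05 these 5 lists held 4, 3, 3, 5 and 3 genes above 0 and 2, 2, 1, 3 and 1 below 0. Of all 13375 genes, 80 passed (0.598%), and at that unadjusted p 1737 were above and 1166 below 0. Of 29 apoptosis genes 1 passed, Bbc3, and the median was 0.20, with 20 differences above 0. Of 38 DNA repair genes 1 passed, Rad51c, with a median of 0.09.

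Cell type and patterning genes bear on neural tube closure and on the makeup of the pools. Counts of 0 past the threshold were obtained for 34 neural tube closure genes (median -0.05), 37 brain patterning genes (0.01), 30 neural crest genes (-0.04), 30 somite genes (0.15), 34 heart muscle genes (0.24) and 33 endothelial genes (0.09). At an unadjusted p under 0.05 these 6 lists held 4, 4, 5, 4, 8 and 8 genes above 0 and 6, 3, 5, 3, 0 and 2 below 0. Of all 13375 genes, 80 passed (0.598%), and at that unadjusted p 1737 were above and 1166 below 0. The yolk sac and visceral endoderm genes had the largest median of the lists. Of 37 measured 0 passed, yet 34 differences were above 0, the median was 0.76, and 18 were above 0 and 0 below at an unadjusted p under 0.05. The apolipoprotein gene Apoa4 had 1.90 (adjusted p = 0.143) and the fibrinogen gene Fgg 1.62 (adjusted p = 0.105).

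The yolk sac list is given by its values alone, since 0 of its genes passed. Its median heat change was -0.50 in wildtype and 0.37 in null pools. The mean log2 level of its genes per pool, relative to each gene's mean, ran from -0.06 to 0.39 in wildtype control pools and from -0.56 to 0.35 in wildtype heat pools. It ran from -0.48 to 0.24 in null control pools and from -0.08 to 0.48 in null heat pools, so that all 4 groups overlapped. Over 28 alternative settings the median difference ran from 0.36, with the split score as a covariate, to 1.01, without null heat C. It was 0.58 without both B pools, a setting chosen after the data were seen. Between 0 and 3 genes passed in these settings, all more positive, with 3 without wildtype heat A. How much extraembryonic tissue each pool held is not given in the sources used here, and its part in the genes more positive in null pools was not tested.

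The number of probes that passed depended on single pools. It was 9 without null heat B, and 47, 32 and 37 without wildtype control B, C and D. It was 49 without wildtype heat D, 57 without null control B, 106 without wildtype heat C, 136 without null control C and 325 without wildtype heat B. Leaving out any of the other 6 pools gave between 159 and 257. Where fitted, none of the 205 probes changed sign in any of these fits or other settings tried. Of the 33 named genes that passed, Dusp28, Tasor and H2aj passed in all 28 alternatives, 27 missed the threshold with the split score as a covariate and 26 without null heat B.

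**Figure D5:**
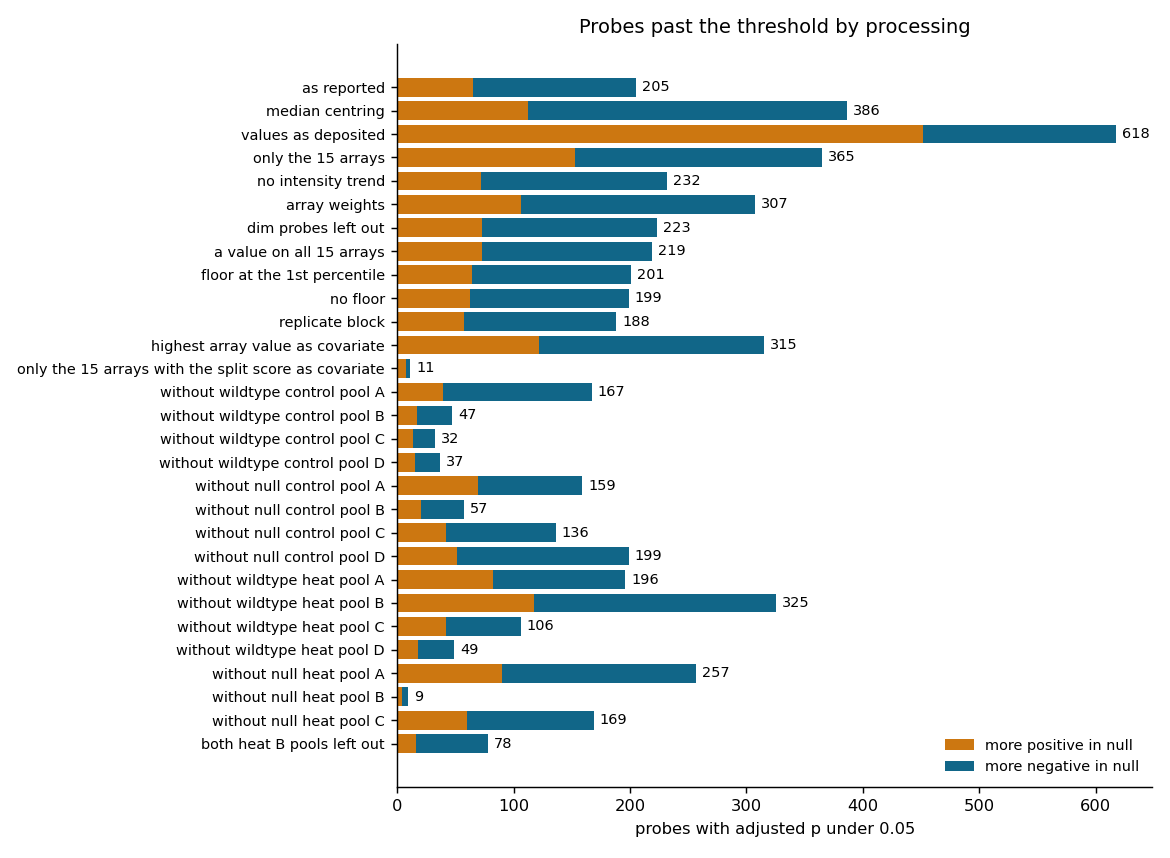
Number of probes past the threshold under each processing setting, split into probes more positive (orange) and more negative (blue) in null pools. The bar for the reported analysis stands at 205, that without null heat B at 9 and that for values as deposited at 618.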

How the data were processed

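CodeLink one-colour arrays of biotin-labelled cRNA were used, per the labels. The deposited values are linear intensities as the authors made them, and the sources used here give neither background correction nor scaling. Control columns hold empty cells and heat columns a code of -9999, both taken as missing. Values were floored at each array's 5th percentile of positive values, put on a log2 scale and quantile-normalised over 18702 probes measured on each of the 23 arrays. Before normalisation that floor was 0.348 to 0.512 on wildtype and null control arrays and 0.0759 to 0.11 on their heat arrays. R 4.3.3 and limma 3.58.1 fitted 6 group means over 23 arrays (lmFit, eBayes with a trend), and p-values were adjusted by Benjamini-Hochberg over 23684 probes. The fit was tested on simulated data.

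A gene is its tested probe of highest mean level. Symbols come from the platform annotation, updated by gene ID through RefSeq (GRCm38.p6). Of 36227 probes, 21615 had 1 symbol, 681 several and 13931 none listed. Named were the 12 largest differences passing in each direction, passing list members (up to 4 by p, or the 2 smallest p), a panel of heat and p53 genes and their other probes; further genes are marked where named. Members and lists were chosen with earlier results of these data known. Fold changes of dim probes are compressed by the floor. The number of arrays limits precision. Alternatives were other normalisation, floors, filters, fits and covariates, and leaving out each pool. No null heat pool D was analysed here.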

Additional observations from a re-analysis of the deposited data

Results flagged for a closer look

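The difference between the null and wildtype heat responses was itself the test for 33 named genes, and each passed limma's test. The log2 differences above 0 were 1.93 for Dusp28, 1.17 for Bloc1s3, 1.23 for Tasor, 1.22 for Med18, 1.51 for Pcyt2, 1.41 for Decr2, 1.75 for Vamp3, 2.01 for Resf1 and 1.79 for Tspan31. They were 1.29 for Mettl7a2, 1.33 for St3gal2, 1.29 for Frmd3, 1.30 for Epor, 1.27 for Fbp2, 1.0 for Rad51c, 1.07 for Lyl1 and 1.27 for Irak2. Those below 0 were -0.803 for Map3k20, -1.88 for 1700007K13Rik, -0.824 for H2aj, -0.995 for Dcxr, -1.04 for Ak1, -1.08 for 4930445K14Rik, -1.22 for Celf5 and -1.29 for Phlda3. They were -1.16 for Kcnq1ot1, -1.81 for Ttc9c, -1.18 for Mapkapk3, -0.468 for Zmat3, -1.54 for Ddit4l, -1.25 for Ccng1, -1.13 for Anxa8 and -1.12 for Bbc3.

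A single pool stood far from the other 3 of its group, by Dixon's test of the gap against the range, in 13 of 269 groups of 4 pools over 93 named genes, where chance gives about 5%. In wildtype controls these were Decr2 at 4.82 in C, 4930445K14Rik at 3.78 in D, Kcnq1ot1 at 4.85 in A, Lyl1 at 1.84 in C and Prdx3 at 53.7 in A. In wildtype heat pools they were Prdx3 at 29.2 in D, Mad2l1 at 36.9 in A, Klf4 at 1.17 in A and Plxna1 at 0.409 in C. In null controls they were Ttc9c at 35.9 in B, Ezh1 at 6.79 in A, Setd2 at 23.8 in D and Mt1 at 20.3 in B.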

How the results depend on the processing

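Where fitted, the 205 probes kept their sign in all 28 alternatives, an outcome all but fixed by choosing them in the same pools. The number past the threshold did not hold. In counts of all, more positive and more negative probes, it was 386, 112 and 274 with median centring, 618, 452 and 166 in values as deposited, 365, 153 and 212 with the 15 arrays fitted alone, and 307, 106 and 201 with array weights. It was 315, 122 and 193 with each array's highest value as a covariate, and 11, 7 and 4 with the split score as a covariate. With both heat B pools left out, a setting chosen after seeing the data, it was 78, 16 and 62. Leaving out 1 pool at a time gave 9 to 325 probes, 4 to 117 more positive and 5 to 208 more negative. Removing the intensity trend, the floor or dim probes gave between 199 and 232. The cause of these shifts was not tested. Median centring moved the median difference of all probes to -0.12.

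Replicate letters were not used to pair the arrays. Over 21 same-letter pairs the correlation of deviations from the group means ran from -0.289 to 0.272, with 8 over 0.1. Its median was -0.0107, against -0.0045 in pairs of unlike letters. With the replicate letter as a block 188 probes passed, 57 more positive and 131 more negative, and 155 of the 205 were among them. Null and wildtype pools then differed for 2828 probes in controls and 490 after heat, against 1819 and 123 without the block. Differences of dim probes are compressed by the floor.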

Other observations

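Cholesterol synthesis genes were mostly above 0, with 15 of 18 differences above 0, a median of 0.20 and 0 past the threshold by limma, and with 3 above and 0 below 0 at an unadjusted p under 0.05. Replication-dependent histone genes were above 0 for 10 of 11, with a median of 0.35, 0 past the threshold, and 4 above and 0 below 0 at an unadjusted p under 0.05. Chromatin modifier genes had a median of -0.03 over 36, trophoblast and decidua genes 0.05 over 18, immune cell genes -0.05 over 10 and germline genes -0.10 over 15. For sex-linked genes the median was 0.14 over 5. Over all 13375 genes, 6920 differences were above 0 and the median was 0.02. At an unadjusted p under 0.05, 1737 of them were above and 1166 below 0.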
